A study of Mus musculus with 6 samples.

Results

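The 10 genes described here are neutrophil genes led by S100a8 and S100a9: S100a8, S100a9, Retnlg, Csf3r, Fpr1, Fpr2, Trem1, Clec4d, Clec4e and Il1r2. They are 10 of the 17684 genes in the deposited kidney table, and all 10 were found there by symbol. The members were chosen by name with their levels in these same libraries in view, selected on the contrast of the Db and Db + Ato10 groups, so their levels and fold changes are given as a description without a test. The study asked what long-term statin administration does to the diabetic kidney. RNA of whole kidney was sequenced in 3 libraries of the Db group and 3 of the Db + Ato10 group. Both groups were db/db mice, which lack a working leptin receptor and become obese and diabetic, of the strain given as C57 BLKS/L and aged 50 weeks. Db + Ato10 mice had received atorvastatin, an inhibitor of HMG-CoA reductase, by oral gavage at 10 mg/kg per day for 40 weeks, and Db mice had received saline. The free-text protocol of all 6 libraries names atorvastatin, and the treatment label, which separates saline from atorvastatin, was used for the groups. According to the study's methods the mice were male. Nothing in the labels says beyond the sample names that the libraries came from separate mice, so p-values measure the spread between these samples.

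Neutrophils are short-lived white cells that are made in bone marrow, circulate in blood and enter tissue during infection or injury. S100a8 and S100a9 proteins pair to form calprotectin, which makes up a large part of the neutrophil's soluble protein, binds calcium, zinc and manganese, and acts on the receptors Tlr4 and Ager when released. The receptor for granulocyte colony-stimulating factor, Csf3r, drives the making and survival of neutrophils, and formyl peptide receptors guide them to bacteria and damaged cells. Healthy kidney holds few neutrophils. Several of the 10 genes are also used by monocytes and macrophages, and S100a8 and S100a9 can be made by epithelial cells as well.

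Expected counts per library, which are reads assigned to genes and need not be whole, summed to 13134930, 11381678 and 12426051 in Db replicates 1, 2 and 3 and to 14578023, 14667909 and 13133241 in Db + Ato10 replicates 1, 2 and 3. The counts of all 10 genes were whole in every library. Levels of a gene across libraries are given as CPM, counts scaled to library size with TMM factors, and 3 counts corresponded to between 0.195 and 0.260 CPM; intervals cover counting error only. Db + Ato10 replicates 1 and 2 stood apart from the other libraries over all genes. On the first principal component, which held 71.0% of the variance, they lay at 106.8 and 46.2, whereas Db + Ato10 replicate 3 lay at -18.8 and the Db libraries at -55.4, -26.9 and -52.0. Their median Spearman correlation with the Db libraries across genes was 0.836 and 0.930, against 0.982 for Db + Ato10 replicate 3. The 4 Y-linked genes had 2 counts in Db replicate 1 and from 1419 to 2116 counts in the other libraries, so that this library went against the male sex given in the methods. Kidney identity was seen in every library, with each of the 10 kidney markers above 0 counts.

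The 10 genes together were low in the Db group and spread over 3 very different levels in the Db + Ato10 group. Their summed level was 5.80, 12.1 and 5.81 CPM in Db replicates 1, 2 and 3, and 10388.5, 137 and 15.1 CPM in Db + Ato10 replicates 1, 2 and 3. In Db + Ato10 replicate 1 the sum was thus 1313 times the Db mean, in replicate 2 it was 17.3 times and in replicate 3 it was 1.91 times. The underlying reads were 73, 140 and 72 counts in the Db libraries and 159732, 2032 and 192 counts in the Db + Ato10 libraries. All 10 genes were above every Db library in Db + Ato10 replicate 1, beside 37.7% of the 13679 genes tested. They were so in replicate 2, beside 35% of all genes, and 8 of 10 were so in replicate 3, beside 23.5%. The genes were selected on this contrast, and nothing is read from these counts. In bulk RNA, more cells of a type and more RNA per cell cannot be told apart.

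**Figure D1:**
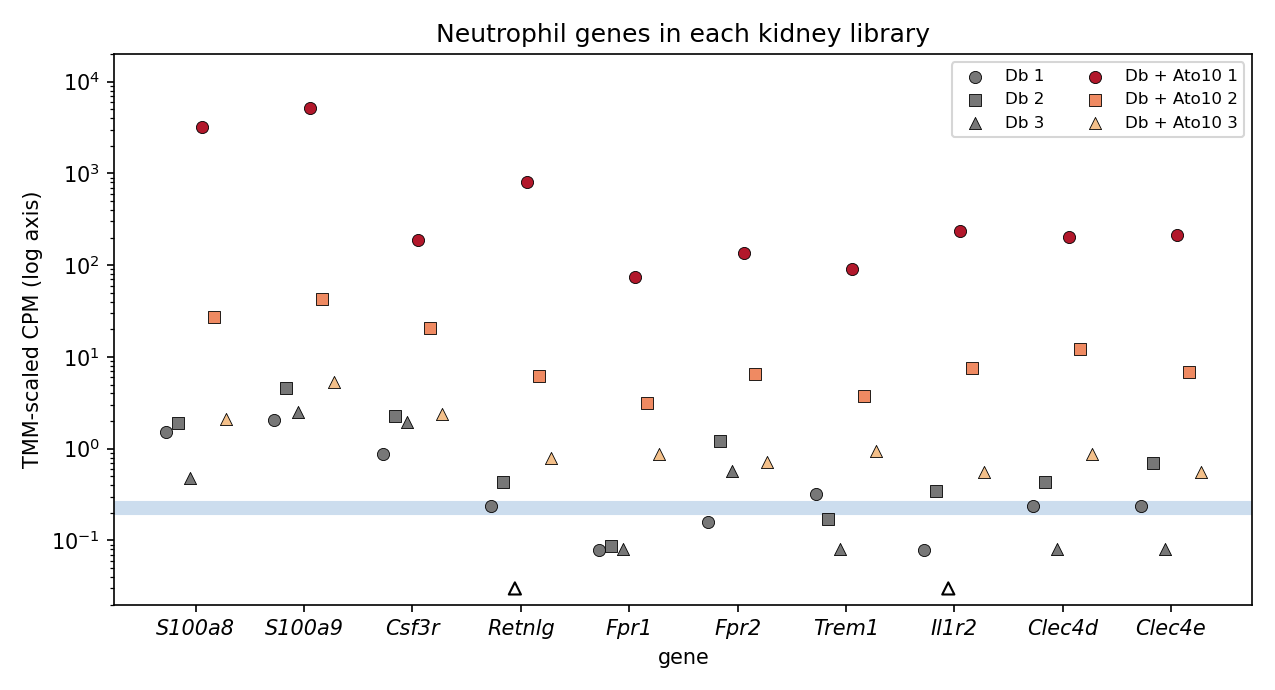
TMM-scaled CPM of each of the 10 genes (log axis) in the 3 Db libraries (grey) and the 3 Db + Ato10 libraries (red to orange); each symbol is 1 library, open symbols at the bottom are 0 counts, and the blue band marks the level of 3 counts. Db + Ato10 replicate 1 is the highest library for all 10 genes, replicate 2 is next, and replicate 3 is the nearest to the Db libraries, from 1.10 times the Db mean for Fpr2 to 10.5 times for Fpr1.

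S100a8 (gene number 20201) encodes the smaller partner of calprotectin. It had 19, 22 and 6 counts in Db replicates 1, 2 and 3, which were 1.51, 1.91 and 0.484 CPM. In Db + Ato10 replicates 1, 2 and 3 it had 49738, 406 and 27 counts, which were 3235, 27.4 and 2.13 CPM. The groups did not overlap, but the lowest Db + Ato10 library lay just above the highest Db library, while replicate 1 exceeded replicate 2 by 118-fold. The group means were 1.30 ± 0.733 CPM (SD, n = 3) in Db and 1088 ± 1859 CPM (SD, n = 3) in Db + Ato10, an SD larger than its mean.

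S100a9 (gene number 20202), the larger partner, had the highest counts of the 10 genes in every library. Counts were 26, 53 and 31 in Db replicates 1, 2 and 3, or 2.06, 4.59 and 2.50 CPM. They were 80237, 634 and 68 in Db + Ato10 replicates 1, 2 and 3, or 5218, 42.7 and 5.35 CPM. Again no Db + Ato10 library fell among the Db libraries, and replicate 3 was 1.75 times the Db mean. Means were 3.05 ± 1.35 CPM (SD, n = 3) and 1755 ± 2999 CPM (SD, n = 3) in Db and Db + Ato10. Of 2 transcript models of S100a9, the same one held between 82.5% and 100% of its counts in every library.

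Per transcript length, the calprotectin pair moved from the middle of the expression range to its top in 1 library. In TPM, which is scaled to transcript length and to the same total in each library, S100a9 was at 21112 in Db + Ato10 replicate 1 and ranked as number 2 of 17684 genes, and S100a8 was at 20081 TPM, rank 3. In Db + Ato10 replicate 2 S100a9 had 193.5 TPM at rank 823 and S100a8 had 192 TPM at rank 832. The ranks in Db + Ato10 replicate 3 were 5123 for S100a9 and 6745 for S100a8. S100a9 ranked from 5645 to 8232 in the Db libraries, and S100a8 ranked from 7222 to 10687 there. S100a9 had 1.61 counts per count of S100a8 in Db + Ato10 replicate 1 and 1.56 in replicate 2, close to each other although the levels differed by more than 100-fold. This ratio was 2.52 in Db + Ato10 replicate 3 and 1.37, 2.41 and 5.17 in the Db libraries, where it rested on 6 to 53 counts per gene.

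Retnlg (gene number 245195) encodes a small secreted protein of the resistin family that is made by mouse myeloid cells. Its counts were 3, 5 and 0 in Db replicates 1, 2 and 3 and 12247, 91 and 10 in Db + Ato10 replicates 1, 2 and 3. On the CPM scale these were 0.238, 0.433 and 0 against 797, 6.14 and 0.787. All Db values of Retnlg were at or near the level of 3 counts, and every Db + Ato10 library lay above them. Among the 10 genes Retnlg had the steepest step between Db + Ato10 replicates 1 and 2, of 129.8-fold, and it reached rank 30 by TPM in replicate 1.

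Csf3r (gene number 12986), the receptor for granulocyte colony-stimulating factor, had the shallowest step. It had 11, 26 and 24 counts in Db replicates 1, 2 and 3, or 0.874, 2.25 and 1.94 CPM. In Db + Ato10 replicates 1, 2 and 3 the counts were 2920, 310 and 30, or 189.9, 20.9 and 2.36 CPM. Replicate 1 was 9.09 times replicate 2, and replicate 2 was 8.85 times replicate 3, so that the steps were nearly equal on a log scale. Replicate 3 was only slightly above the highest Db library, at 1.40 times the Db mean.

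The formyl peptide receptors Fpr1 and Fpr2 sense N-formyl peptides of bacteria and mitochondria, and Fpr2 also binds other peptides and lipids. Fpr1 (gene number 14293) had 1 count in each Db library, and 1145, 47 and 11 counts, or 74.5, 3.17 and 0.866 CPM, in Db + Ato10 replicates 1, 2 and 3. With 3 Db counts in all, the ratio of the Db + Ato10 to the Db group was 341 with a 95% Poisson interval from 116.5 to 1657. Fpr1 in replicate 2 alone was 38.6 times the Db group (interval 12.4 to 194), and in replicate 3 alone 10.5 times (interval 2.78 to 58.8). Its close relative Fpr2 (gene number 14289) was less sparse in Db, with 2, 14 and 7 counts, or 0.159, 1.21 and 0.565 CPM. In Db + Ato10 replicates 1, 2 and 3 it had 2075, 96 and 9 counts, or 135, 6.47 and 0.708 CPM. The groups overlapped for Fpr2, since Db + Ato10 replicate 3 lay below Db replicate 2, and this library was 1.10 times the Db mean.

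Trem1 (gene number 58217) amplifies inflammatory signals through the adaptor Tyrobp. It had 4, 2 and 1 counts in Db replicates 1, 2 and 3 and 1398, 56 and 12 counts in Db + Ato10 replicates 1, 2 and 3. In CPM the Db + Ato10 libraries were at 90.9, 3.78 and 0.945 and the Db libraries at 0.318, 0.173 and 0.0807. There was no overlap, and replicate 3 was 4.96 times the Db mean, on 12 counts against 7 in the whole Db group.

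Clec4d and Clec4e are neighbouring C-type lectin receptors that bind mycobacterial glycolipid, signal through Fcer1g and Syk, and in the case of Clec4e also sense dead cells. Clec4d (gene number 17474) had 3, 5 and 1 counts in the Db libraries and 3089, 179 and 11 counts in Db + Ato10 replicates 1, 2 and 3. The corresponding levels were 0.238, 0.433 and 0.0807 CPM in Db and 201, 12.1 and 0.866 CPM in Db + Ato10. Its Db + Ato10 libraries all lay above Db, and the step between replicates 2 and 3, of 13.9-fold, exceeded that of the other 9 genes. Clec4e (gene number 56619) had 3, 8 and 1 counts in Db and 3271, 102 and 7 counts in Db + Ato10 replicates 1, 2 and 3, the latter being 213, 6.88 and 0.551 CPM. For Clec4e the groups overlapped, because 0.551 CPM in Db + Ato10 replicate 3 lay below the 0.693 CPM of Db replicate 2. The 2 lectins thus ran together in replicate 1 and differed by 179 to 102 counts in replicate 2.

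Il1r2 (gene number 16178) is a decoy receptor that binds interleukin 1 without signalling. Counts of 1, 4 and 0 in Db replicates 1, 2 and 3 faced counts of 3612, 111 and 7 in Db + Ato10 replicates 1, 2 and 3. The levels were 0.0794, 0.346 and 0 CPM in Db and 235, 7.48 and 0.551 CPM in Db + Ato10, without overlap. Il1r2 had the highest fold of the 10 genes over the Db mean in replicate 2, of 52.7, resting on 5 Db counts. Estimated counts of its 7 transcript models were not divided alike: the model with the most counts in Db + Ato10 replicate 1, 2881 counts or 79.8% of Il1r2, had 0 counts in replicate 2. There another model held 103 counts, or 92.4%, against 553 counts, or 15.3%, in replicate 1. For other genes with more than 1 model, the leading model of replicate 1 held 47.9% of Csf3r, 64.1% of Trem1, 83.3% of Clec4e and 91.5% of Clec4d in replicate 2.

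Most of the group's level came from 1 library. Db + Ato10 replicate 1 held 98.6% of the summed CPM of the 10 genes over the Db + Ato10 group, replicate 2 held 1.30% and replicate 3 held 0.143%. For single genes the share of replicate 1 ran from 89.1% for Csf3r to 99.1% for Retnlg, with a median of 95.8%. Without S100a8 and S100a9, the share of replicate 1 was 96.3%. In the Db group the highest library, replicate 2, held 51.1% of the summed CPM.

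Steps between libraries were large for all 10 genes. Replicate 1 exceeded replicate 2 of the Db + Ato10 group by 9.09-fold to 129.8-fold, with a median of 27.5, and replicate 2 exceeded replicate 3 by 3.66-fold to 13.9-fold, with a median of 8.99. Against the Db mean, the median fold over the 10 genes was 853 in replicate 1, 20.7 in replicate 2 and 2.60 in replicate 3. These medians include Fpr1, with 3 counts in the Db group, and Il1r2, with 5. Retnlg, S100a9 and S100a8 had steps above 100-fold between replicates 1 and 2, whereas the 7 other genes had steps of 31.4-fold or less.

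Leaving out replicate 1 shrank the group difference without turning it for any of the 10 genes. The ratio of group means ran from 42.1 for Csf3r to 1197 for Retnlg, with a median of 301, over all 3 Db + Ato10 libraries. Over replicates 2 and 3 alone it ran from 5.56 for Fpr2 to 28.3 for Il1r2, with a median of 11.9. In edgeR fits without a filter on low counts, the log2 fold change of S100a8 was 9.68 ± 2.79 (SE) with all libraries and 3.49 without replicate 1. That of S100a9 was 9.14 ± 2.64 (SE) with all libraries and 2.97 without replicate 1, and that of Csf3r was 5.37 ± 1.51 (SE) and 2.77. Retnlg had the highest fitted value of the 10 genes, 10.16 ± 2.95 (SE), which became 3.91 without replicate 1. Without replicate 2 or replicate 3 of the Db + Ato10 group, the fitted values were higher than with all libraries for all 10 genes, for example 10.29 and 10.26 for S100a8. Leaving out a Db library moved the fitted value of S100a8 to between 9.28 and 10.04, and that of Il1r2, with few Db counts, to between 8.51 and 10.65. Without Db replicate 1, the library with few Y-linked counts, S100a8 was at 9.80 and S100a9 at 8.92.

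Db + Ato10 replicate 3 was the nearest of its group to Db, at a distance that differed between genes. Pooling the Db libraries, with exact 95% Poisson intervals that cover counting error only, its ratio was highest for Fpr1, at 10.5 (interval 2.78 to 58.8), a gene with 3 Db counts. Trem1 followed at 4.93 (interval 1.79 to 14.8), Il1r2 at 4.02 (interval 1.10 to 16.1), Retnlg at 3.59 (interval 1.28 to 10.5) and Clec4d at 3.51 (interval 1.32 to 9.59), each on 12 or fewer counts. These 5 genes were the sparsest in Db, with 3 to 9 counts in the whole group. The ratio was lower for the genes with more Db counts: S100a9 at 1.78 (interval 1.29 to 2.43), Clec4e at 1.68 (interval 0.559 to 4.62), S100a8 at 1.65 (interval 0.989 to 2.71), Csf3r at 1.41 (interval 0.881 to 2.22) and Fpr2 at 1.12 (interval 0.458 to 2.52). The intervals leave out the spread between samples, and Db replicate 2 alone had 140 counts of the 10 genes against 192 in this library.

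The make-up of the 10-gene counts also differed between libraries. S100a8 and S100a9 together were 81.4% of them in Db + Ato10 replicate 1 (95% Clopper-Pearson interval 81.2% to 81.6%) and 51.2% in replicate 2 (interval 49.0% to 53.4%). In Db + Ato10 replicate 3 the pair made up 49.5% (interval 42.2% to 56.8%), and in the Db libraries 61.6%, 53.6% and 51.4%. These intervals cover counting error and not the spread between samples, so they are given as a description. Csf3r was 1.83% of the counts in replicate 1 (interval 1.76% to 1.89%) and 15.3% in replicate 2 (interval 13.7% to 16.9%), and from 15.1% to 33.3% in the 3 Db libraries. Retnlg made up 7.67% in replicate 1 and 4.48% in replicate 2, whereas Clec4d went the other way, with 1.93% and 8.81%.

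**Figure D2:**
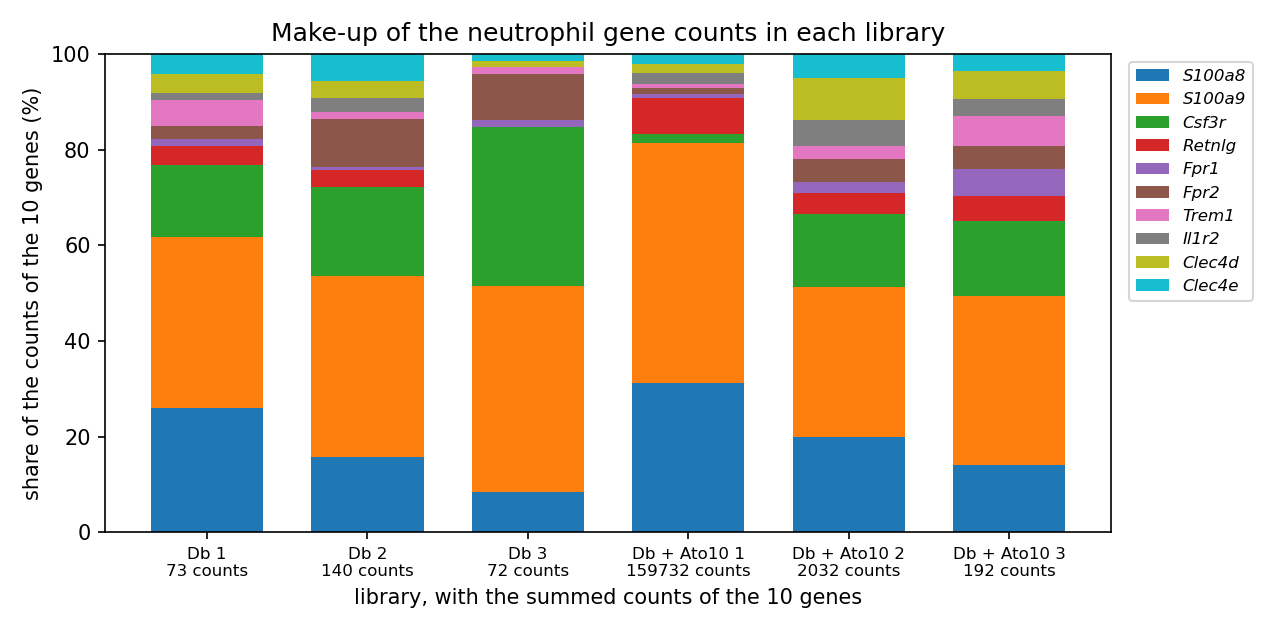
Share of the summed counts of the 10 genes taken by each gene (percent, stacked to 100) in each of the 6 libraries, with the summed counts under each bar. S100a8 and S100a9 make up 81.4% of the bar of Db + Ato10 replicate 1 and 49.5% to 61.6% of the other bars.

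Read per length, the order of the 10 genes was alike at its top and differed lower down. S100a9, S100a8 and Retnlg were the 3 highest by TPM in all 3 Db + Ato10 libraries. Trem1 was the lowest of the 10 in replicates 1 and 2, at 48.4 and 2.22 TPM, and Clec4e the lowest in replicate 3, at 0.37 TPM. Csf3r stood at place 8 of 10 in replicate 1, with 115 TPM, at place 5 in replicate 2, with 14.5 TPM, and at place 4 in replicate 3, with 1.51 TPM. In the Db libraries S100a8 and S100a9 took the top places, at 3.44 to 20.8 TPM, and the 8 other genes were at or below 1.78 TPM.

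Across all genes, the edgeR quasi-likelihood test with Benjamini-Hochberg adjustment found 0 of 13679 genes with a fold change over 1.5 and an adjusted p under 0.05. Of the 10 genes, 8 were tested and 0 met both criteria, beside 0% of all genes tested. Il1r2 and Clec4e were not tested, because they had 10 counts in fewer than 3 libraries. The smallest adjusted p over all genes was 0.239. At an unadjusted p under 0.05 there were 2314 genes, 1533 of them higher in Db + Ato10, or 11.2%, and these included the 8 tested members. Every Db + Ato10 library was above every Db library for 8 of the 10 genes, 7 of them tested, beside 11.8% of all genes tested (1616). As above, nothing is read from these counts for the 10 genes.

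Calls differed with DESeq2 and with 1 library left out, and not with the other alternatives. By limma-voom, and by edgeR with upper-quartile normalization, without a filter, with 10 counts in every library or with the replicate block, 0 genes were called. DESeq2 called 884 genes, 707 of them higher in Db + Ato10, or 5.17%. It called Csf3r, Fpr2 and Clec4d and gave no p-value for the 5 other tested members, S100a8, S100a9, Retnlg, Fpr1 and Trem1. Clec4d had no Db library at 10 counts. Without Db + Ato10 replicate 3, edgeR called 1106 genes, 805 of them higher, or 5.96% of 13517 tested. Only 4 of the 10 genes had enough counts to be tested in that fit, and these 4, S100a8, S100a9, Csf3r and Fpr2, were called higher. Leaving out any of the 5 other libraries gave 0 calls by edgeR. Since the 10 genes were selected on this contrast, nothing about them is read from calls by either tool.

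Other neutrophil genes, as sums, were highest in Db + Ato10 replicate 1, then 2, then 3; single genes did not all share this order, and the order of the Db libraries differed between lists. For the 13 granule genes, stored antimicrobial proteins and enzymes, the summed level was 13.3, 10.5 and 17.4 CPM in Db replicates 1, 2 and 3, and 2179, 144 and 38.3 CPM in Db + Ato10 replicates 1, 2 and 3. Olfm4 was the most abundant of them in all 3 Db libraries, Ngp in Db + Ato10 replicate 1 and Ltf in replicates 2 and 3. The genes of early granules were also highest in Db + Ato10 replicate 1: Mpo had 4, 0 and 0 counts in Db and 736, 6 and 0 in Db + Ato10, and Elane 1, 0 and 0 against 294, 2 and 0. Fcnb had 34, 0 and 1 counts in Db + Ato10, and Olfm4 had 10.6, 8.66 and 15.9 CPM in Db against 49.6, 48.1 and 15.2 CPM in Db + Ato10, so that its groups overlapped. Of the 13 genes 5 were tested, with a median log2 fold change of 7.56. Of these 5 genes 3 passed the filter without any Db library at 10 counts, so that their being tested already depended on high Db + Ato10 counts. Without a filter the median over all 13 was 7.43. Olfm4 was at 1.69; Cd177 had counts of 0, 3 and 0 against 1725, 69 and 13, Mmp9 had a log2 fold change of 7.70 ± 2.03 (SE) and Ltf one of 7.56 ± 1.27 (SE). The 16 surface and nuclear genes summed to 2.30, 3.38 and 1.86 CPM in Db and to 1839, 33.9 and 4.80 CPM in Db + Ato10. Ly6g, the surface marker that defines mouse neutrophils, had 1, 0 and 1 counts in Db and 396, 7 and 0 counts in Db + Ato10, and its 0 counts in replicate 3 allow a level of up to 0.236 CPM. Only 2 of the 16 were tested, Asprv1 at 8.07 and Slfn4 at 6.18 (median 7.12), and without a filter the median over all 16 was 8.36. Asprv1 passed the filter without any Db library at 10 counts. Cxcr2, the chemokine receptor of neutrophils, had 7, 9 and 5 counts against 653, 70 and 9. Counts of the Stfa and Mrgpra2 genes in this list were divided among near copies and are uncertain.

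Ligands of these receptors were measured in the same libraries. Csf3, the ligand of Csf3r, had 1, 0 and 0 counts in Db and 307, 15 and 3 counts in Db + Ato10, where Csf3r had the same order; in Db it did not. The 11 neutrophil-recruiting cytokines summed to 4.61, 3.46 and 2.26 CPM in Db and 1252, 144 and 21.2 CPM in Db + Ato10. The most abundant was Cxcl2 in Db + Ato10 replicate 1, Cxcl5 in replicate 2 and Cxcl1 in replicate 3, and Cxcl1 or Ppbp in Db. Cxcl2 had 0, 1 and 2 counts against 8830, 269 and 33, and Cxcl3 had 0, 2 and 0 against 2548, 76 and 16. Cxcl1 had this order in Db + Ato10 with hardly any step between replicates 1 and 2, with 683 and 655 counts in Db + Ato10 replicates 1 and 2, or 44.4 and 44.2 CPM, and 44, 24 and 5 counts in Db. Of the 11 cytokines 5 were tested, with a median log2 fold change of 7.89, that of Cxcl5 (SE 1.47), and 3 of these 5 had no Db library at 10 counts. Without a filter the median over all 11 was 5.70.

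Receptor partners and signalling genes, most of which kidney cells also use, are given without a comparison of size, because the 10 genes were selected on this contrast. Over 18 tested genes of 19 the median log2 fold change was 1.11, and the median step between Db + Ato10 replicates 1 and 2 was 2.66-fold. Tlr4, a receptor of S100a8 and S100a9, had 4.69, 8.49 and 5.89 CPM in Db and 22.6, 13.8 and 5.90 CPM in Db + Ato10. The adaptor Fcer1g and the kinase Syk, which serve Clec4d and Clec4e, had log2 fold changes of 4.47 ± 1.35 (SE) and 4.53 ± 1.23 (SE). Il1rn, which blocks the signalling receptor of interleukin 1, was at 6.45 ± 1.92 (SE), and Il1b had 9, 11 and 14 counts against 6677, 220 and 50. None of these was called by edgeR with all libraries, which called 0 of 13679 genes. DESeq2 called Fcer1g, Syk and Il1rn and not Tlr4, beside 6.46% of all tested genes, and gave no p-value for Il1b. Without Db + Ato10 replicate 3, edgeR called Fcer1g, Syk, Il1rn and Il1b and not Tlr4, beside 8.18%. The lists were chosen with earlier results known, and nothing is read from these calls.

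Relatives of the 10 genes spread over a wide range. The S100 family without S100a8 and S100a9 had a median log2 fold change of 0.89 over 9 tested genes of 12, with S100a6 at 3.80, S100a4 at 2.85 and S100a11 at 1.72. Of the 9 tested genes 7 were above 0, whereas S100a1 was at -0.12 and S100g at -0.63. S100g was the most abundant of the family in all 3 Db libraries. The summed level of the family was 1435, 1788 and 1323 CPM in Db and 2554, 1625 and 1555 CPM in Db + Ato10. The other relatives, which include lectins next to Clec4d and Clec4e, were tested in 9 of 19 cases with a median of 4.22, or 3.20 over 15 genes without a filter, which became 2.22 without Db + Ato10 replicate 1. Clec4n was at 5.74, Trem2 at 4.44 and Clec4a1 at 4.29, and the median step of the 9 between replicates 1 and 2 was 2.79-fold. Clec4a1 had 64.8, 13.4 and 1.65 CPM in Db + Ato10. Trem3, too sparse to be tested, had 0, 1 and 0 counts in Db and 307, 8 and 1 counts in Db + Ato10.

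Markers of other cells also differed between the libraries, and their part in the result was not tested. The 12 myeloid genes shared with other cells were all tested, with a median log2 fold change of 4.75 and a median step between replicates 1 and 2 of 7.29-fold; Il1b was at 7.34, Lcn2 at 6.89 and Chil3 at 6.51. Lyz2 was the most abundant of them in the Db libraries. In the Db + Ato10 libraries it was Lcn2, which injured tubule cells also make, with 38, 502 and 80 counts in Db and 77244, 12849 and 3915 in Db + Ato10. Macrophage and monocyte markers summed to 134, 212 and 168 CPM in Db and 2975, 873 and 253 CPM in Db + Ato10, with a median log2 fold change of 3.13 over 14 tested genes of 15 and a step of 2.55-fold. Their leading genes by log2 fold change were F13a1 at 6.54, Cd14 at 5.25, and Ly6c2 at 4.55, whose counts are shared with a near copy. Cx3cr1, Ccr2 and Itgax were instead higher in Db + Ato10 replicate 2 than in replicate 1, with 30.1 against 24.3, 11.8 against 10.3 and 11.3 against 7.87 CPM. Csf1r was the most abundant in the Db libraries and Db + Ato10 replicate 3, Cd14 in replicate 1 and C1qa in replicate 2. Adgre1 had 37, 93 and 44 counts against 1613, 346 and 68, and Cd68 had 20, 66 and 51 against 2704, 620 and 93. Lymphocyte markers, led by Jchain, summed to 3.57, 24.9 and 6.86 CPM in Db and 334, 114 and 9.92 CPM in Db + Ato10 (median log2 fold change 2.07 over 6 tested of 12, Jchain at 4.27, Cd3g at 2.89 and Cd79b at 2.10). Jchain alone held 17.8%, 66.7% and 47.1% of this sum in Db replicates 1, 2 and 3. Its share was 87.6%, 80.7% and 50% in Db + Ato10 replicates 1, 2 and 3, so that the sum mostly followed Jchain in replicates 1 and 2. Cd3g was higher in Db + Ato10 replicate 2 than in replicate 1, with 7.69 against 3.84 CPM. Without a filter the median over all 12 was 2.11, and from 1.37, without Db + Ato10 replicate 1, to 2.94, without Db replicate 2. Of the mast cell, basophil and eosinophil markers 2 of 9 were tested, Hdc at 3.92 and Ms4a2 at -0.91 (median 1.51); without a filter the median over 8 genes was 2.27, and from 0.97 to 2.76 with 1 library left out. They summed to 7.23, 4.68 and 7.91 CPM in Db and 218, 24.0 and 11.9 CPM in Db + Ato10. Hdc, which neutrophils also express, held from 81.5% to 85.7% of the sum in the Db libraries and from 92.7% to 98.2% in the Db + Ato10 libraries.

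Squamous epithelium, kidney and blood markers were measured in the same libraries. Squamous markers summed to 6.59, 8.14 and 4.84 CPM in Db and 175, 115 and 44.6 CPM in Db + Ato10, with a step of 1.36-fold between replicates 1 and 2 and a median log2 fold change of 5.11 over 6 tested genes of 14. Sbsn was the most abundant of them in the Db libraries, Krt5 in Db + Ato10 replicates 1 and 2 and Sprr1a in replicate 3. Of the 6 tested genes 3 had no Db library at 10 counts. Without a filter the median over 10 genes was 3.14, and 2.78, 3.58 and 3.16 without Db + Ato10 replicate 1, 2 and 3 in turn. These 10 genes leave out Krt6b and Krt13, which were in the table with 1 count each. Krt5 had 5, 1 and 5 counts against 1127, 589 and 149 (log2 fold change 7.08), Krt15 was at 6.98, and Krt14 had 1, 0 and 0 counts against 473, 202 and 71. The 10 kidney markers, of which Slc34a1 or Umod was the most abundant in each library, summed to 16930, 13831 and 14788 CPM in Db and to 6506, 5492 and 13075 CPM in Db + Ato10, lowest in replicate 2. Their median log2 fold change was -0.75, with Slc5a2 at -1.55, Slc12a1 at -1.48 and Lrp2 at -1.20, and the proximal tubule phosphate carrier Slc34a1 had 4264, 3107 and 3885 CPM in Db against 349, 1875 and 4224 CPM in Db + Ato10. Red cell and platelet markers, of which Hba-a1 or Hbb-bs was the most abundant in each library, summed to 932, 833 and 3437 CPM in Db and 1277, 242 and 539.6 CPM in Db + Ato10, highest in Db replicate 3 and, within Db + Ato10, in replicate 1. Their median log2 fold change was -1.36 over 7 tested genes of 11, with Hba-a2 at -1.47 and Hba-a1 at -1.41, both with counts divided between near copies, and the platelet gene Pf4 at 5.51. Over the same 7 genes this median ran from -2.14, with Db + Ato10 replicate 1 left out, to -0.40, with Db replicate 3 left out, and over 10 genes without a filter it was -0.76. With 1 library left out the medians ran from -1.14 to -0.61 for kidney markers, from 0.58 to 1.05 for the S100 family and from 0.77 to 1.47 for receptor partners and signalling genes. Leaving out a library changes which genes pass the filter, so medians without a filter, over the same genes throughout, are given for single libraries. Without Db + Ato10 replicate 1 they were 2.25 for granule, 2.92 for surface and nuclear, 2.30 for shared myeloid, 3.99 for cytokine and 2.03 for macrophage and monocyte genes. Without replicate 2 and without replicate 3 they were 7.88 and 8.01 for granule genes and 6.18 and 6.26 for cytokine genes. Over these 13 lists edgeR called 0 of 105 tested genes with all libraries. Without Db + Ato10 replicate 3 it called 54 of 93, or 58.1%, beside 8.18% of all tested genes in either direction. DESeq2 called 57 of 105, or 54.3%, beside 6.46%. The lists were chosen with earlier results of these data known, and nothing is read from these shares. The median log2 fold change of all tested genes was -0.01.

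**Figure D3:**
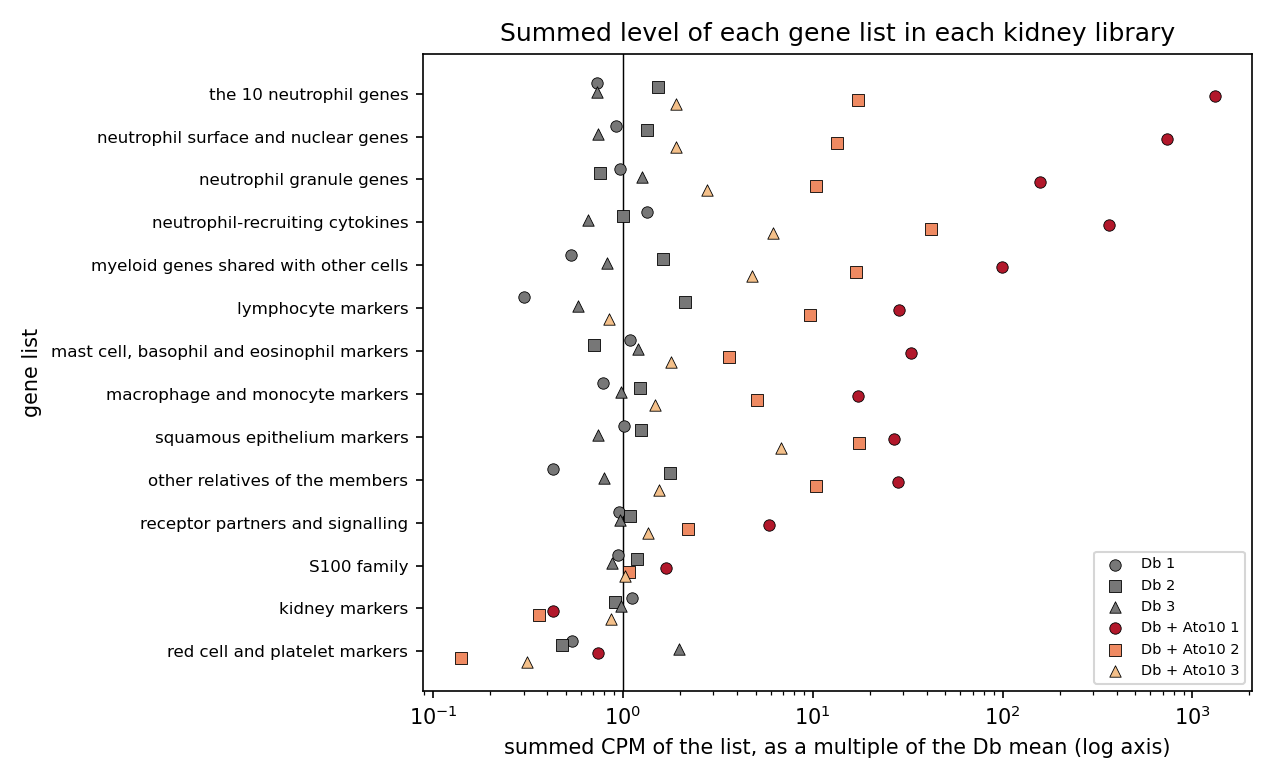
Summed CPM of each gene list in each library as a multiple of the mean of the 3 Db libraries (log axis, the vertical line marks 1); each symbol is 1 library, grey for Db and red to orange for Db + Ato10. The 10 genes reach 1313 times the Db mean in Db + Ato10 replicate 1, a size that their selection on this contrast affects, and it is not compared with the other lists. In that library these were at 732 times for neutrophil surface and nuclear genes, 363 times for neutrophil-recruiting cytokines, 158 times for granule genes, 99.2 times for shared myeloid genes, 17.4 times for macrophage and monocyte markers, 26.9 times for squamous epithelium markers and 0.736 times for red cell and platelet markers.

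Some genes outside the lists, or in the myeloid list, had patterns much like the mean of the tested members. Over the 6 libraries and 13378 candidate genes with a mean CPM of at least 1, the 10 highest Pearson correlations of log2 CPM included those of Dok3, Ppp1r18, Tnfrsf1b, Elmo1, Ier5, Ncf4, Csf2ra, F10 and Fxyd5, from 0.999 for Dok3 to 0.998 for Fxyd5. Correlations over 0.99 were found for 106 candidates, or 0.792%, and over 0.95 for 807, or 6.03%. These correlations share the same 6 points, of which Db + Ato10 replicates 1 and 2 stand apart over all genes. Ncf4, a subunit of the phagocyte oxidase, had 1.35, 2.51 and 1.53 CPM in Db and 139.8, 11.7 and 2.52 CPM in Db + Ato10.

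Promoter sequences of S100a8 and S100a9 are shown because these 2 genes, which lie close together on mouse chromosome 3, ran in parallel over the Db + Ato10 libraries. They were taken from a RefSeq promoter table of assembly GRCm38.p6, which differs from the build of the deposited counts, and cover 250 bases before to 50 bases after the annotated start, counted from 0 at its first base. That of S100a8 is chr3:90668821-90669120 on the + strand and that of S100a9 is chr3:90695672-90695971 on the - strand, each written 5′ to 3′ along the gene. Capitals mark matches to the motifs searched on both strands, which were C/EBP as TTGCNNAA, PU.1 as AGGAAGT, AP-1 as TGANTCA and the TATA box as TATAAA.
S100a8: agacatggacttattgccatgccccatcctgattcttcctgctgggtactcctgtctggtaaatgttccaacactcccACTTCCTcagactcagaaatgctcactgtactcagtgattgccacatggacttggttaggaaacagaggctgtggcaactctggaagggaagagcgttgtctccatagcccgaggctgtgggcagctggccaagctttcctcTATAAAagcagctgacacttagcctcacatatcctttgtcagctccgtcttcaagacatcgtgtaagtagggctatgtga
S100a9: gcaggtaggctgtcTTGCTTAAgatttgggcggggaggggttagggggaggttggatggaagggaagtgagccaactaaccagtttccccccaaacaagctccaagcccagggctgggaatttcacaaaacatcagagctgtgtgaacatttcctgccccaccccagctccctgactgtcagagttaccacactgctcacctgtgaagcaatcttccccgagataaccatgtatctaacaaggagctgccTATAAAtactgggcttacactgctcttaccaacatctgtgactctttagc

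In S100a8 the capitals are a PU.1 match on the reverse strand at -172 to -166 and a TATA box at -30 to -25. In S100a9 they are a C/EBP match at -236 to -229 and a TATA box at 0 to 5, that is, at the annotated start itself. Promoters of all 10 genes were in the table. The TATA box letters were in 5 of them (S100a8, S100a9, Fpr1, Fpr2 and Clec4e), beside 13.6% of 32851 promoters of the same length. C/EBP letters were in 3 (S100a9, Retnlg and Clec4e), beside 10.8%, PU.1 letters in 2 (S100a8 and Trem1), beside 9.35%, and AP-1 letters in 0, beside 7.81%. Csf3r, Il1r2 and Clec4d held none of the 4 motifs in this window. A match describes letters in the sequence and not binding.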

How the data were processed

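Kidney RNA in 3 Db and 3 Db + Ato10 libraries was analysed from the tables the authors deposited. These hold expected counts per gene and transcript (estimated reads, not normalized), and the authors also deposited FPKM and TPM, which are scaled by transcript length and library size. Submitters' processing notes name HISAT, Bowtie2 2.2.5 and the build mm9. Groups came from the treatment labels. No 2 libraries were identical (0 pairs).

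Expected counts, 91.3% of them whole, were rounded and fitted in edgeR 4.0.16 under R 4.3.3 (TMM, glmQLFit, glmQLFTest). A gene was tested where 3 or more libraries had 10 or more counts. A call needed an adjusted p (Benjamini-Hochberg) under 0.05 with a fold change over 1.5. Log2 CPM used a prior count of 2. The SE of an edgeR log2 fold change was worked back from the F statistic, as the absolute log2 fold change over its square root. It therefore carries the same information as that statistic. Medians of log2 fold changes are over tested genes unless given as without a filter. Medians without a filter were added after seeing the data for the gene lists, and for the 10 genes with 1 library left out. Alternatives were DESeq2 1.42.0, limma-voom (limma 3.58.1), upper-quartile normalization, no filter beyond 1 count, 10 counts in every library, a replicate block, FPKM or TPM on a log2 scale, and each library left out. The fitting steps were tested on simulated data, where both edgeR and DESeq2 recovered most altered genes and both, DESeq2 more so, also called unaltered ones above the share that the threshold allows. All simulated libraries had the spread of the Db libraries, and none was made to stand apart. The simulation therefore cannot say which tool's calls hold in the real libraries. DESeq2 gives no p-value where a count lies far from its fit.

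The 10 genes and the lists were chosen with earlier results of these data known. Named were all 10 genes, the defining markers, the 3 tested genes of each list with the largest absolute log2 fold change, and the 10 genes most like the members by Pearson correlation, of which 1 is not reported here; other genes were chosen after their values were seen. The lists were neutrophil granule genes, neutrophil surface and nuclear genes, myeloid genes shared with other cells, neutrophil-recruiting cytokines, receptor partners and signalling, S100 family, other relatives, macrophage and monocyte, lymphocyte, mast cell, basophil and eosinophil, squamous epithelium, red cell and platelet, and kidney markers. Plots used Python 3.11.15 and matplotlib 3.10.9.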

Additional observations from a re-analysis of the deposited data

How the results depend on the processing

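The median log2 fold change of the tested members, 8.16 over 8 genes, was 8.27 with DESeq2, 8.16 with upper-quartile normalization and 8.11 over all 10 genes without a filter. With limma-voom it was 5.41, and the cause was not tested. It was 3.20 as log2(FPKM + 1), 3.59 as log2(TPM + 1) and 5.18 as log2(TPM + 0.1), and the cause of this fall was not tested. Retnlg, Fpr1, Trem1 and Clec4d had no Db library at 10 counts. That these members were tested already depended on high Db + Ato10 counts. Leaving out 1 library gave medians from 3.00, without Db + Ato10 replicate 1, to 9.79, without Db + Ato10 replicate 2, but only 3 members were tested in each of these fits. Over all 10 genes without a filter these medians were 3.52 and 8.66, and those without the other libraries ran from 7.90 to 8.71. The medians over all 10 genes with 1 library left out, and those of the gene lists without a filter, were alternatives chosen after seeing the data. No value changed sign (0 reversed).

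The share of the summed level held by Db + Ato10 replicate 1, 98.6%, was 98.6% without TMM scaling, 99.0% with deposited FPKM, 98.9% with deposited TPM and 96.3% without S100a8 and S100a9. Members with every Db + Ato10 library above every Db library numbered 8, beside 11.8% of all genes tested, and 8 to 10 with 1 library left out, beside 14.3% to 25.3% of all genes. It was 10 without Db replicate 2 (20% of all genes) and without Db + Ato10 replicate 3 (25.3%). These were alternatives chosen after seeing the data, as were DESeq2 size factors and TPM (8 each).

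Genes called over the whole table numbered 0 with edgeR, 0 with limma-voom and 884 with DESeq2, and from 0 to 1106 with 1 library left out; listed genes called numbered 0 of 105 tested, 57 with DESeq2 (54.3%, beside 6.46% of all tested genes), and from 0 to 54, the last without Db + Ato10 replicate 3 (58.1% of 93, beside 8.18%). The cause of these differences was not tested. With the replicate number as a block (replicate block), 0 genes were called over the table and 0 among the lists, and the median of the members was 6.19; S100a8 fell from 9.72 to 5.61 and S100a9 from 9.18 to 4.10. The deviations of same-numbered libraries from their group means had correlations of -0.151, 0.0613 and 0.208 for replicates 1, 2 and 3. With 3 libraries per group these values cannot settle whether same-numbered libraries share more than a number, and this was not tested. Low Db counts, from 3 to 110 in all per gene, limit the precision of every fold over Db.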
